A study of Rattus norvegicus with 6 samples.

Results

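The levels of 10 genes that choroid plexus epithelium uses to move ions, water and solutes were read in RNA-seq libraries of the rat amygdala. The members were chosen by name, and all 10 were found among the 38445 NCBI genes of the count files. They were picked with the comparison of ethanol and control libraries already known, so every value and count of that comparison is given for them as a description and not as a test. The rats were adult male Sprague Dawley/WT animals that received saline (control) or ethanol at a dose of 1 g/kg, both by the intraperitoneal route, and the amygdala was collected 1 h later. Each group of 6 rats gave 3 libraries, each of RNA pooled from 2 rats, so a library is an average over its rats and the spread within a library cannot be seen. The amygdala was taken as a dissected block of tissue that held several cell types. In such bulk tissue, fewer cells of a type and less RNA per cell cannot be told apart.

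The choroid plexus is a sheet of epithelium inside the brain ventricles that secretes cerebrospinal fluid. It moves sodium, chloride and bicarbonate from blood to ventricle, water follows through aquaporin channels, and potassium is recycled through channels and cotransporters. Its carriers also clear organic anions from the fluid and supply it with sulfate and other solutes. The amygdala lies beside the temporal horn of the lateral ventricle, where choroid plexus is also found.

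Among the members, Kcnj13 encodes the inward rectifier potassium channel Kir7.1 and Kcne2 encodes a small accessory subunit that partners with potassium channels such as Kcnq1. Slc4a5 is a sodium bicarbonate cotransporter, Slc12a2 is the sodium-potassium-chloride cotransporter NKCC1 and Clic6 belongs to the chloride intracellular channel family. Aqp1 is the water channel of the ventricular face of the epithelium, and Trpv4 is a calcium-permeable channel that responds to cell swelling and warmth. Slco1a5 carries organic anions, Slc16a8 is the monocarboxylate transporter MCT3 and Slc13a4 is a sodium-coupled sulfate carrier. The genes lie on 6 chromosomes of the Rnor_6.0 build used for counting. Slc4a5 (114918488 to 115002290), Aqp1 (85551503 to 85563683), Slco1a5 (176445856 to 176528117) and Slc13a4 (62796732 to 62841053) are on chromosome 4. Kcne2 (32434786 to 32447264) and Clic6 (32655653 to 32698004) are on chromosome 11, Kcnj13 (94486719 to 94495333) on chromosome 9, Slc16a8 (120486266 to 120490192) on chromosome 7, Trpv4 (47698915 to 47737902) on chromosome 12 and Slc12a2 (52917124 to 52985281) on chromosome 18. The counted exons of the members, 2200 to 6557 bases per gene, shared no base with another gene of the same strand. Kcnj13 lies opposite Gigyf2, Slco1a5 opposite Iapp and Slc4a5 opposite a gene without a symbol, and the counting kept the strands apart. Slco1a5 has close relatives such as Slco1a4, and reads that aligned to several places were not counted, so its level is uncertain in this respect.

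Between libraries, 8 of the members moved together, and the promoters of some members are shown as a description. Whether promoter sequence has a part in the members' values was not tested. The RefSeq promoter table (build GRCr8) held 8 of the 10 members, and no entry was matched for Kcne2 and Clic6. The 250 bases before the annotated start are printed for 4 genes that moved together and for Slc13a4, which did not follow them. Capitals mark the CCAAT box, the TATA box (letters TATAAA) and the core of the cAMP response element (letters TGACG), each searched on both strands. The promoters of Slco1a5, Trpv4 and Slc12a2 are not printed. That of Slc12a2, which did not follow the others either, held none of these motifs. The intervals are chr9:95518987-95519236 (minus strand) for Kcnj13, chr4:85812534-85812783 (plus) for Aqp1, chr4:117283044-117283293 (plus) for Slc4a5, chr7:112702497-112702746 (minus) for Slc16a8 and chr4:64955987-64956236 (minus) for Slc13a4.
Kcnj13: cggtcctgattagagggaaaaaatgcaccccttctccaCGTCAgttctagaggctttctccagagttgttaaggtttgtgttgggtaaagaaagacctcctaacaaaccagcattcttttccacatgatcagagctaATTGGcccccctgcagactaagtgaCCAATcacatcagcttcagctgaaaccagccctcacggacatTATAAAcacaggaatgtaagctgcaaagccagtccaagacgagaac
Aqp1: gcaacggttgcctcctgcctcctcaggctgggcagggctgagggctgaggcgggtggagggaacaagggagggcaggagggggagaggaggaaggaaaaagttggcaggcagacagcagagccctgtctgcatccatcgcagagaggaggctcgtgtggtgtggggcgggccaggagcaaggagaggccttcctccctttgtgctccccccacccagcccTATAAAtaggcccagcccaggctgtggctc
Slc4a5: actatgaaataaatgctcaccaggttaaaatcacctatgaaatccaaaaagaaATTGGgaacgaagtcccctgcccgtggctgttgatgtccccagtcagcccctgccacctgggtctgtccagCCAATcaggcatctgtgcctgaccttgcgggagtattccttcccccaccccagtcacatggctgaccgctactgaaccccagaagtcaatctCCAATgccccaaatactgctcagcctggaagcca
Slc16a8: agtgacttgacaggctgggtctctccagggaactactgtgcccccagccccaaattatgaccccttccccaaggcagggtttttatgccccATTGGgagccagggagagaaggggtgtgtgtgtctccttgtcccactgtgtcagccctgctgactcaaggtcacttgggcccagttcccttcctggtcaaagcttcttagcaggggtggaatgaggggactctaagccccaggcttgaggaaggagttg
Slc13a4: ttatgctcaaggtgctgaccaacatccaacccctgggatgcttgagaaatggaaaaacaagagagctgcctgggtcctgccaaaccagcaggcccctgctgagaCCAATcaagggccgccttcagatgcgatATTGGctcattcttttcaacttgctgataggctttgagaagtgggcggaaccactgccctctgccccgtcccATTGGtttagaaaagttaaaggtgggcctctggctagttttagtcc
The CCAAT box occurred on either strand in 4 of the 8 member promoters (Kcnj13, Slc4a5, Slc16a8 and Slc13a4), against 34% of the 33469 promoters in the table. The TATA box occurred in 3 (Kcnj13, Aqp1 and Slco1a5), against 12.9%, and in Aqp1 it began 30 bases before the start. The cAMP element core occurred in 2 (Kcnj13 and Trpv4), against 18.2%. An OTX-type homeodomain motif (letters TAATCC), a forkhead motif (letters GTAAACA) and an E-box (letters CACGTG) occurred in 0 of the 8, against 6.34%, 3.21% and 5.59% of all promoters. The CCAAT and TATA boxes were added after the sequences had been read, no motif overlapped another kind in these windows, and a match here is only a run of letters. Base composition differed widely, from 38.4% G and C in Slco1a5 to 83.2% in Slc12a2, where the median of all promoters was 51.2%.

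Levels are given as CPM, the reads of a gene relative to all reads assigned in its library, after TMM scaling in edgeR. Kcnj13 was at 9.54, 18.2 and 16.7 CPM in control replicates 1, 2 and 3 and at 1.75, 3.72 and 7.67 CPM in ethanol replicates 1, 2 and 3. All 3 ethanol libraries lay below all 3 controls, and ethanol replicate 3 was the highest of its group. The group means were 14.8 ± 4.64 CPM (SD, n = 3) and 4.38 ± 3.02 CPM (SD, n = 3), and the log2 fold change was -1.76 (SE 0.48). Kcne2 was also lower in each ethanol library, with 5.97, 10.4 and 7.6 CPM in the controls and 2.07, 1.97 and 5.31 CPM after ethanol. Its groups did not overlap either, although ethanol replicate 3 came within 1 CPM of control replicate 1. The log2 fold change of Kcne2 was -1.35 (SE 0.39), and its lowest ethanol library kept 24.7% of the control mean, against 11.8% for Kcnj13.

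Slc4a5, the bicarbonate cotransporter, was at 9.21, 22.6 and 9.48 CPM in the controls and at 0.53, 1.03 and 10.3 CPM in the ethanol libraries. Ethanol replicates 1 and 2 were far below every control, while ethanol replicate 3 was above controls 1 and 3, so the groups overlapped. In counts, Slc4a5 had 602, 1607 and 601 reads in the controls and 34, 66 and 714 after ethanol. Clic6 showed the same split, at 11.3, 29.7 and 15 CPM in the controls and 1.37, 1.29 and 12.9 CPM after ethanol. Ethanol replicate 3 was inside the control range, between control replicates 1 and 3. The log2 fold changes were -1.80 (SE 0.94) for Slc4a5 and -1.85 (SE 0.84) for Clic6.

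Slc12a2, the chloride-loading cotransporter that many brain cells also express, did not share this order. Its levels were 134, 91.4 and 97.5 CPM in the controls and 91.8, 101 and 121 CPM after ethanol. The groups overlapped, with control replicate 1 highest and control replicate 2 lowest. The group means were 108 ± 23.2 CPM (SD, n = 3) and 105 ± 15 CPM (SD, n = 3), and the log2 fold change of -0.04 (SE 0.16) was smaller than its error. Its sign depended on single libraries and became 0.14 without control replicate 1 and 0.05 without ethanol replicate 1.

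Aqp1, the water channel, was at 5.34, 12.4 and 7.43 CPM in the controls and at 0.467, 0.824 and 6.15 CPM after ethanol. Again ethanol replicates 1 and 2 were below all controls, and ethanol replicate 3 was above control replicate 1. Trpv4 was at 1.61, 2.58 and 2.29 CPM in the controls and at 0.53, 0.715 and 1.68 CPM after ethanol, with ethanol replicate 3 just above the lowest control. The log2 fold change was -1.75 (SE 0.82) for Aqp1 and -1.14 (SE 0.40) for Trpv4, the smaller of the pair.

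Slco1a5, the organic anion carrier, kept the smallest share of its control mean in ethanol replicates 1 and 2, with 221, 579 and 277 counts in the controls and 12, 7 and 236 after ethanol. In CPM these were 3.38, 8.15 and 4.37 against 0.187, 0.109 and 3.39. Ethanol replicate 3 and control replicate 1 were level, so the groups overlapped by 1 narrow margin. Slc16a8, the lactate carrier and the rarest member, had 54, 121 and 82 counts in the controls and 10, 6 and 44 after ethanol, which is 0.826, 1.7 and 1.29 CPM against 0.156, 0.0933 and 0.632 CPM. Its groups did not overlap. The log2 fold changes of these carriers were -2.09 (SE 0.99) and -2.09 (SE 0.59), the lowest of the 10 members.

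Slc13a4, the sulfate carrier, had another order of libraries. It was at 26.1, 32.2 and 62.4 CPM in the controls and at 18.5, 40.9 and 30.7 CPM after ethanol. Control replicate 3 stood highest, ethanol replicate 2 came next and ethanol replicate 1 was lowest. The means were 40.2 ± 19.4 CPM (SD, n = 3) and 30 ± 11.2 CPM (SD, n = 3), with -0.42 as the log2 fold change (SE 0.37). Leaving out 1 library moved it between -0.71, without ethanol replicate 2, and 0.04, without control replicate 3.

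**Figure D1:**
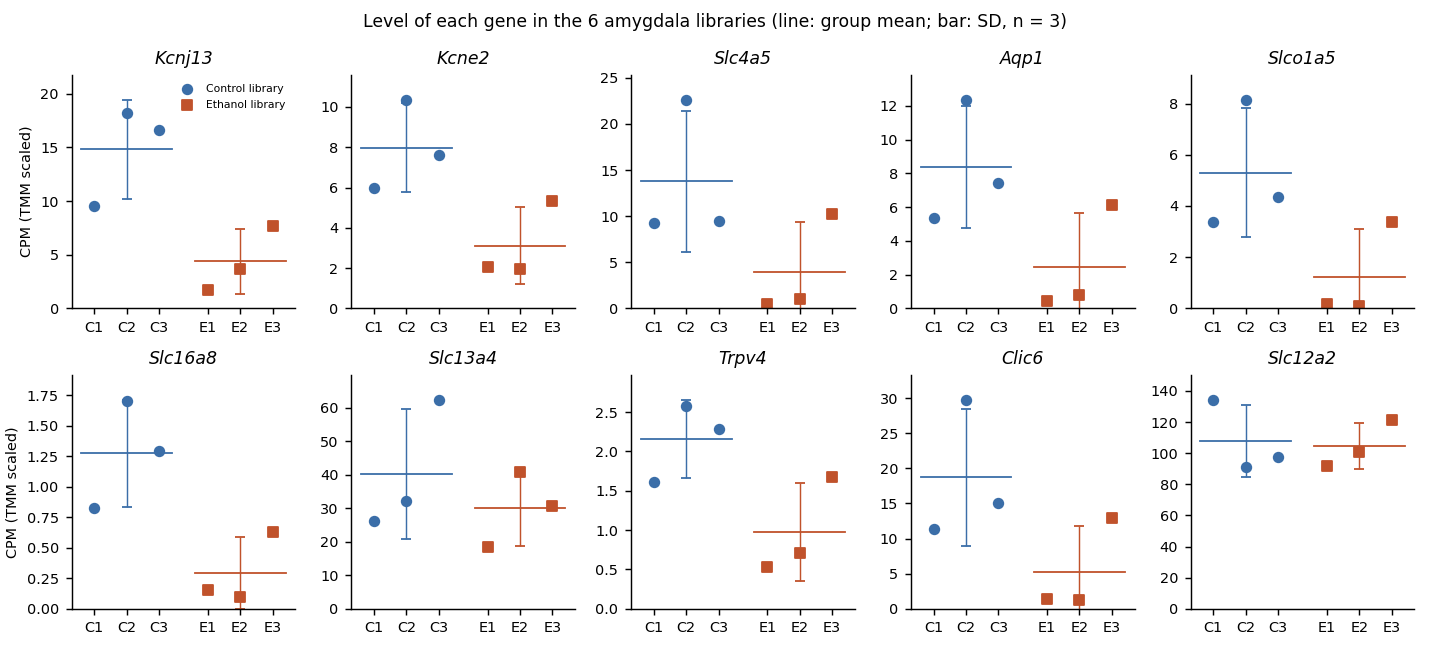
Level of each gene, in CPM on a linear axis from 0, in control replicates 1 to 3 (C1 to C3, circles) and ethanol replicates 1 to 3 (E1 to E3, squares); lines are group means and bars the SD (n = 3), drawn only above 0. In 8 panels ethanol replicates 1 and 2 sit below every control, and in the panels of Slc13a4 and Slc12a2 the groups overlap.

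Taken library by library, ethanol replicate 1 was below the lowest control for 9 of the 10 members, ethanol replicate 2 for 8 and ethanol replicate 3 for 3. Of all 18141 genes tested, 23.5%, 25.8% and 27.4% were below the lowest control in the same 3 libraries. The 8 genes low in both ethanol replicates 1 and 2 are the members other than Slc13a4 and Slc12a2, a group named here after its values were seen. Relative to their control means, these 8 genes stood at 3.53% to 26% in ethanol replicate 1 and at 2.05% to 33.2% in ethanol replicate 2. In ethanol replicate 3 they stood at 49.6% to 77.9%. Slco1a5 and Slc4a5 kept the smallest shares in ethanol replicate 1, at 3.53% and 3.85%, and Kcne2 and Trpv4 the largest of the 8, at 26% and 24.6%. Ethanol replicate 3 gave another order, with Slc16a8 and Kcnj13 lowest at 49.6% and 51.7% and Trpv4 highest at 77.9%. Ethanol replicate 1 was above ethanol replicate 2 for 4 of the 8 genes and below it for the other 4.

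**Figure D2:**
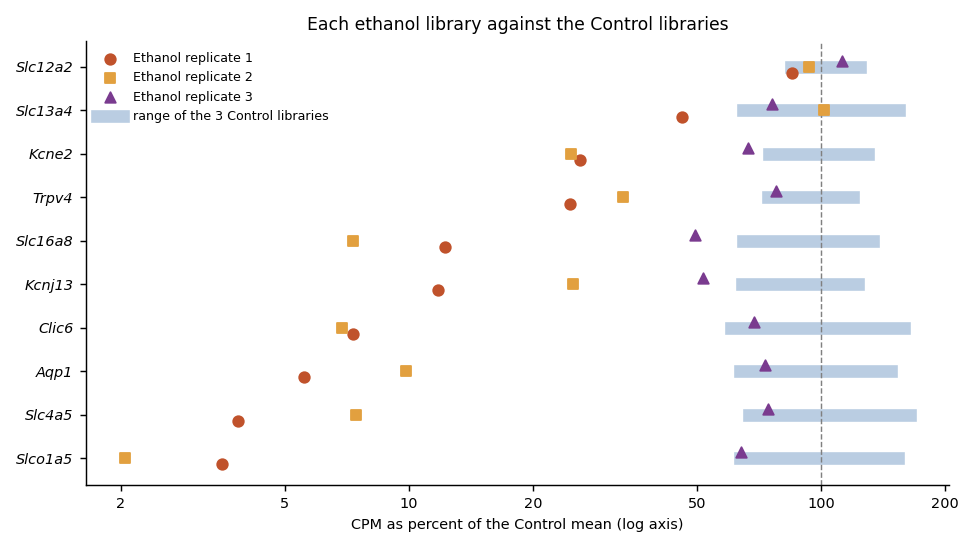
CPM of each member in the 3 ethanol libraries as a percent of its control mean (horizontal log axis), with the range of the 3 control libraries as a bar and points offset vertically to be visible. Ethanol replicates 1 and 2 of 8 genes lie at or below 33.2%, apart from the bar, while ethanol replicate 3 lies at 49.6% or more.

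The controls also differed among themselves. Within the control group the highest library exceeded the lowest by 1.6-fold (Trpv4) to 2.63-fold (Clic6) for the 8 genes, and the order was the same in each, with control replicate 2 highest, then 3, then 1. Of all genes tested, 20.7% had this order. It was also that of 16 of the 22 tested genes of a second list, the other choroid plexus markers. The SD of log2 CPM over the 3 controls was 0.35 to 0.74 in the 8 genes, where the median gene had 0.12, and over the 3 ethanol libraries it was 0.80 to 2.50, where the median gene had 0.13. Slc12a2 had SDs of 0.30 and 0.20.

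Levels can be compared between genes only per length. In the controls, Slc12a2 was the highest member at 16.8 ± 3.61 CPM per kb of counted exon (SD, n = 3), followed by Slc13a4 at 10.3 ± 4.97 and Clic6 at 8.4 ± 4.37 CPM per kb. Kcnj13, Slc4a5, Aqp1 and Kcne2 formed a middle group between 3.07 and 4.65 CPM per kb. Slco1a5, Trpv4 and Slc16a8 were lowest, at 0.808, 0.665 and 0.579 CPM per kb. Of the 9 neighbouring pairs in this order, only Kcne2 and Slco1a5 had control ranges that did not overlap. Compared within each library, Clic6 was above Kcnj13 and Trpv4 above Slc16a8 in 3 of 3 controls although their ranges overlapped, and the other neighbours changed places in at least 1 control.

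**Figure D3:**
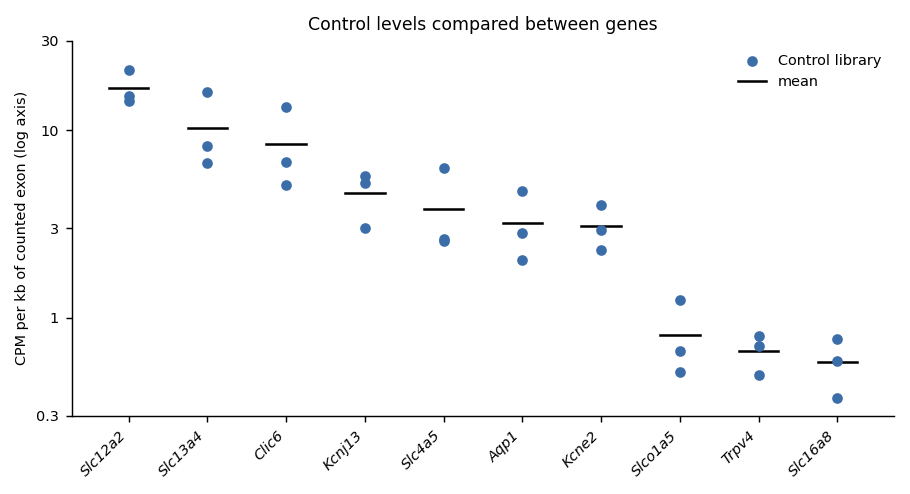
Control levels in CPM per kb of counted exon (vertical log axis), 1 circle per control library and a line at the mean, with the members in order of the mean. The gap between Kcne2 and Slco1a5 is the only place where the ranges of neighbours do not overlap.

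When every gene was fitted by the quasi-likelihood test of edgeR, none of the 10 members (0) passed an adjusted p of 0.2, and 0% of the 18141 genes did. At an unadjusted p below 0.05 there were 4 members, all lower (Kcnj13, Kcne2, Slc16a8 and Trpv4), against 2.58% of all genes lower, 1.57% higher and 4.15% in either direction. In 3 members (Kcnj13, Kcne2 and Slc16a8) all ethanol libraries lay below all controls, against 5.19% of all genes, and in 0 members they lay above, against 3.65%. The likelihood ratio test of edgeR called 1 member (Kcnj13, with 0.424% of all genes called) and DESeq2 called 1 (Slc16a8, with 0.408%). DESeq2 gave no adjusted p for Slc4a5, so it did not judge that member. These counts are descriptions, because the members were chosen on this comparison. The median log2 fold change of the members was -1.75, with a range from -2.09 to -0.04, where the median of all genes tested was 0.01. One library decided the calls. Without ethanol replicate 3, edgeR's quasi-likelihood test called 8 of the 10 members, with 0.452% of 18356 genes called and 0.311% called lower, and the median log2 fold change of the members was -2.89. The log2 fold change then became -5.15 for Slco1a5, -4.14 for Slc4a5, -3.81 for Clic6, -3.70 for Aqp1 and -3.34 for Slc16a8. The other 3 moved less, to -2.44 for Kcnj13, -1.98 for Kcne2 and -1.79 for Trpv4. Leaving out any other library gave Slc4a5 no value above -1.24, Clic6 none above -1.34 and Aqp1 none above -1.26. Without ethanol replicate 1 the test called 0 members, with 0.0217% of genes called. With only 2 ethanol libraries left, these values rest on the assumption that the groups vary alike. That ethanol replicate 3 differed from the other ethanol libraries was known when the members were chosen. The 8 called without it are the same 8 named above as low in ethanol replicates 1 and 2. Their calls are therefore a description and not a test.

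The members were set beside 23 other genes of choroid plexus epithelium, a list written with earlier results of these data known. Ttr, which encodes the thyroid hormone and retinol carrier transthyretin, was at 462, 996 and 817 CPM in the controls and at 5.42, 4.34 and 425 CPM after ethanol. Its ethanol replicates 1 and 2 held 0.715% and 0.572% of the control mean, less than any member, and ethanol replicate 3 held 56.1%. Folr1, the folate receptor, was at 5.84, 12.6 and 8.47 CPM in the controls and at 0.904, 1.27 and 6.02 CPM after ethanol. Cldn2, a claudin of leaky tight junctions, and Tmem72 split in the same way, with 1.59% and 3.9% of the control mean in ethanol replicate 1 and 64.7% and 73.4% in ethanol replicate 3. Not every gene of the list split so, and Cldn1, Cldn3, Rdh5, Lbp, Krt8 and Calml4 were among those that did not. Krt8 and Calml4 held 61.8% and 69.5% of the control mean in ethanol replicate 3, below their 72.9% and 70.2% in ethanol replicate 2. Below the lowest control were 20, 19 and 9 of the 22 tested genes in ethanol replicates 1, 2 and 3. Of all genes tested, 23.5%, 25.8% and 27.4% were. Ethanol replicates 1, 2 and 3 held 57.9%, 97.7% and 77.5% of the control mean for Cldn1. For Cldn3 they held 75.8%, 97.1% and 83.7%. Otx2, a transcription factor that defines this epithelium, had 1 count in control replicate 2 and 0 in every other library, so this defining marker was at or near 0 in these files. The summed level of the 23 genes was 865 to 1603 CPM in the controls and 140.4 to 807 CPM after ethanol, and the part that this list plays in the members' values was not tested. Of the 22 genes tested, the quasi-likelihood test of edgeR called 0, and 12 were lower at an unadjusted p below 0.05, against 2.58% of all genes. DESeq2 and the likelihood ratio test each called 2 of them (Krt18 and Msx1), against 0.408% and 0.424% of all genes. Without ethanol replicate 3 the quasi-likelihood test called 10, against 0.452%. The median log2 fold change of the list was -1.0, with Ttr, Sostdc1 and F5 lowest at -2.39, -2.20 and -2.18. Enpp2, the lysophospholipase autotaxin, which oligodendrocytes express too, was the second highest gene of the list per kb and had a value of -0.97.

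Outside the 10 members, the genes whose library profile was most like theirs were found by the root mean square difference of log2 CPM, centred on the control mean, from the median profile of the members over the 6 libraries. The 5 nearest were Mab21l4 (0.16 log2 units), Folr1 (0.16), Parl-ps1 (0.17), Pla2g5 (0.20) and Fyb2 (0.23). Parl-ps1 was at 0.0156 and 0.0155 CPM in ethanol replicates 1 and 2, less than a count of 3 (0.0424 to 0.0479 CPM). Mab21l4 was at 0.0467 CPM in ethanol replicate 1, about that limit, so the closeness of both genes is uncertain. Lmx1a, Mfrp and Mapk13 came within 0.40 to 0.43, and 2 further genes of the 10 nearest have no symbol in the gene table used. Lmx1a encodes a transcription factor of the embryonic roof plate. Of the members, Kcnj13 and Slc16a8 lay nearest to the median profile, at 0.36 and 0.39, while Slc13a4 and Slc12a2 lay farthest, at 1.41 and 1.58.

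Each member was also compared with the summed level of 8 marker lists and 2 transport lists by a root mean square difference. It was taken on log2 CPM without a prior count, as a description decided on after the values were seen. The other choroid plexus markers were nearest for the 8 genes, at differences from 0.38 (Kcnj13) to 1.30 (Slco1a5) log2 units. These 8 were named for being low in ethanol replicates 1 and 2. No other summed list fell as far there as the choroid plexus markers, which were at -3.09 and -2.78 log2 units from their control mean. The nearness of the 8 genes to that list therefore follows from how they were named. In the controls that summed list was mostly Ttr, at 462, 996 and 817 of 865, 1603 and 1239 CPM. In ethanol replicates 1 and 2 it was mostly Enpp2, at 89.1 and 114 of 140 and 174 CPM. These differences therefore rest largely on Ttr and Enpp2 and not evenly on the list. For Slc13a4 the nearest list was that of the leptomeninges, the fibroblast membranes around the brain, at 0.14, against 1.51 for the choroid plexus. The 12 leptomeningeal genes, of which Col1a2 and Ogn were listed at 0 in every library, summed to 205 to 401 CPM in the controls and 148 to 297 CPM after ethanol, and control replicate 3 was highest, as for Slc13a4. For Slc12a2 the nearest lists were endothelium (0.21), astrocyte (0.22) and solute transport (0.22), followed by ion transport (0.28), amygdala neurons (0.32) and oligodendrocyte (0.34). Its difference from the choroid plexus markers was 1.70. The oligodendrocyte list, though not among the nearest, was highest in ethanol replicate 3 and control replicate 1, the same libraries in which Slc12a2 was highest. Whether leptomeningeal or oligodendrocyte content has a part in the values of these carriers was not tested.

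**Figure D4:**
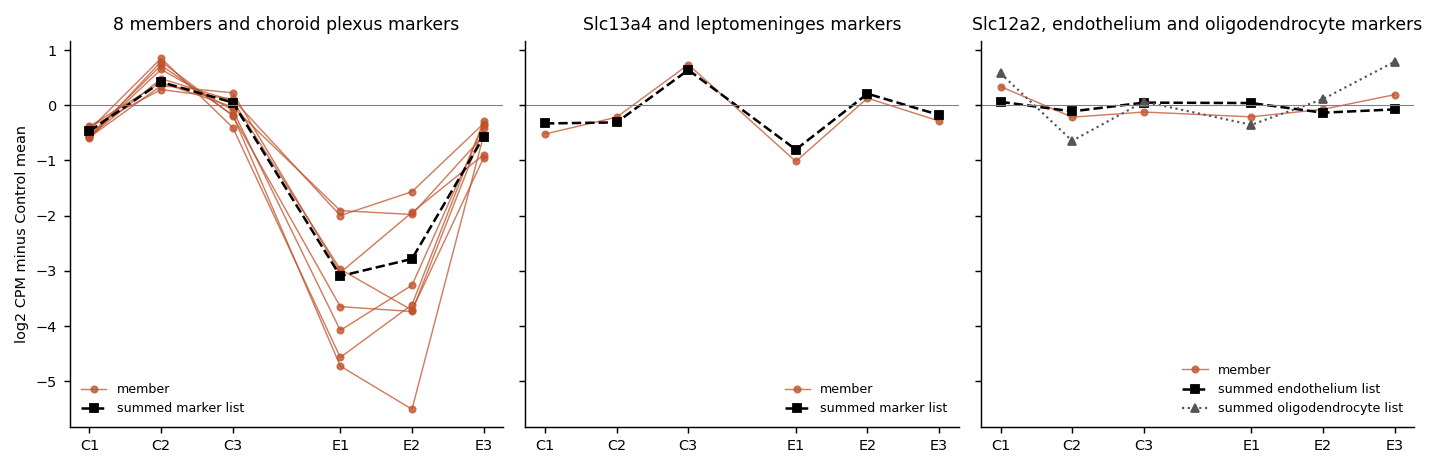
Log2 CPM minus the control mean in the 6 libraries for the members (circles) and for summed marker lists (dashed or dotted): 8 members with the other choroid plexus markers, Slc13a4 with the leptomeningeal list and Slc12a2 with the endothelium and oligodendrocyte lists. Lines join the values of 1 gene or list and imply no order among replicates. The 8 members dip in E1 and E2 with the choroid plexus list, and Slc13a4 runs with the leptomeningeal list. The choroid plexus sum is mostly Ttr in the controls and mostly Enpp2 in E1 and E2.

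Other genes that serve the same secretion were set beside the members. Of 21 ion transport genes besides the members, 20 were tested. The quasi-likelihood test of edgeR called 0 of them, with 0 at an unadjusted p below 0.05, and the likelihood ratio test and DESeq2 also called 0. Their median log2 fold change was -0.02, and Slc4a2 was the 1 gene called without ethanol replicate 3. Atp1b1, a beta subunit of the sodium pump, was the highest of them per kb and had a log2 fold change of 0.05 (SE 0.12). Kcnq1, a potassium channel that Kcne2 can accompany, was lowest at -0.55 (SE 0.36), with 0.428, 0.662 and 0.552 CPM in the controls and 0.296, 0.233 and 0.589 CPM after ethanol. Slc4a2, a chloride-bicarbonate exchanger, followed at -0.42 (SE 0.21), and Car12, a carbonic anhydrase, at -0.36 (SE 0.23). Ethanol replicates 1 and 2 of Slc4a2 were below every control, at 20.5 and 23.2 CPM against a lowest control of 31.2 CPM, and ethanol replicate 3 was at 36.7 CPM.

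Of 17 solute carriers and receptors of the barrier between blood and cerebrospinal fluid, 16 were tested. The quasi-likelihood test and the likelihood ratio test of edgeR and DESeq2 each called 0, and the first gave 1 higher and 1 lower gene at an unadjusted p below 0.05. Slc2a1, the glucose transporter GLUT1, had a log2 fold change of 0.32 (SE 0.09), and Slco1c1, a thyroxine carrier, of -0.20 (SE 0.07). Both are also made by brain endothelium. Slco1c1 belongs to the same family as Slco1a5, whose value was -2.09. The median of the list was -0.09. Clcn2 of the first list and Slc40a1 of the second were listed at 0 in every library. A gene listed at 0 here, and Otx2 near 0, cannot be read as absent from the tissue, since the files give no reason for the zeros.

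Genes of the ependyma, the ciliated lining of the ventricles, were also counted. Of 17 such genes, 16 had a log2 fold change below 0, against 47.4% of all genes tested. At an unadjusted p below 0.05, 11 were lower, against 2.58% of all genes, and the quasi-likelihood test of edgeR called 0. The likelihood ratio test called 5 and DESeq2 7, against 0.424% and 0.408% of all genes, while leaving out ethanol replicate 3 gave 0 calls. Their median log2 fold change was -0.47, and their summed level was 160 to 216 CPM in the controls and 137 to 146 CPM after ethanol. Dynlrb2, Cfap44 and Ak7, components of cilia, were lowest at -0.88, -0.86 and -0.73. Its summed level in ethanol replicate 3 was 142 CPM, within the range of the other ethanol libraries. Whether the ependyma has a part in the members' values was not tested.

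Paralogs of the members gathered near 0. Of 86 paralogs from the same 10 families, 65 were tested. The quasi-likelihood test, the likelihood ratio test and DESeq2 each called 0, and the first gave 2 lower and 4 higher genes at an unadjusted p below 0.05. The median log2 fold change of the paralogs was 0.04, with values from -0.42 (Slc4a2) to 0.59 (Slc12a1). Against -1.76 for Kcnj13, the 13 tested paralogs of the Kcnj family lay between -0.14 and 0.57. Aqp4, the astrocyte water channel, was the highest aquaporin per kb and had a log2 fold change of 0.07 (SE 0.14), while Aqp1 took 0.831%, 1.97% and 0.993% of the family's CPM per kb in the controls and 0.0749%, 0.13% and 0.734% after ethanol. Kcne2 took 25.3%, 41.4% and 26.3% of its family in the controls and 11.1%, 11.7% and 16.2% after ethanol. Clic6 took 8.65%, 23.6% and 10.2% against 1.3%, 1.17% and 7.68%, whereas Clic4, the highest of that family, had a log2 fold change of 0.12 (SE 0.20). Slc13a4 was the highest of its family and Slc12a2 the second after Slc12a5, the neuronal chloride extruder KCC2, whose log2 fold change was 0.13 (SE 0.09).

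**Figure D5:**
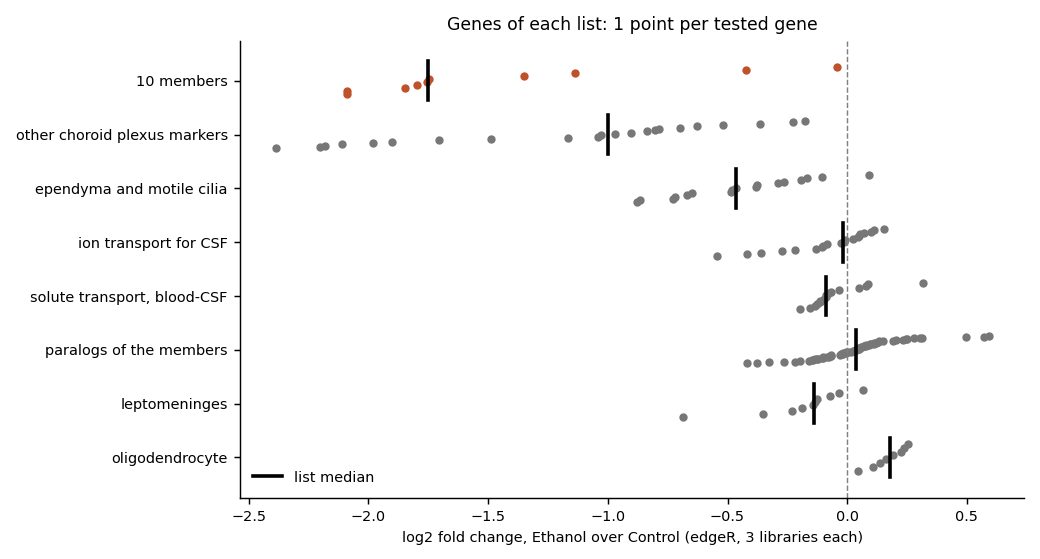
Log2 fold change of ethanol over control (horizontal axis) for every tested gene of 8 lists, 1 point per gene, with the list median as a vertical bar. Of the members, 8 lie to the left of -1, the other choroid plexus markers run from -2.39 to -0.18, and the transport lists and paralogs gather near 0.

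The libraries held 62576504 to 70755739 assigned reads, with totals that overlapped between groups, and TMM factors of 0.976 to 1.01. A count of 3 was worth 0.0424 to 0.0479 CPM, a limit that covers counting error only. Neuronal genes of the amygdala were present in every library. The 13 listed neuronal genes summed to 4233 to 4881 CPM in the controls and 4044 to 5457 CPM after ethanol, and the quasi-likelihood test of edgeR called 0 of them, with 0 at an unadjusted p below 0.05, as did the likelihood ratio test and DESeq2. Oligodendrocyte genes summed to 3751 to 8753 CPM in the controls and 4586 to 10132 CPM after ethanol, and blood genes to 175 to 297 CPM in the controls and 301 to 338 CPM after ethanol. The part of these contents in the members' values was not tested.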

How the data were processed

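RNA was extracted from the amygdala of saline- and ethanol-injected rats, pooled in pairs, and sequenced from one end in strand-specific mRNA libraries. The authors deposited counts, raw whole numbers of reads per gene and library, made per the file headers with featureCounts 1.6.3 (reverse strand, exons summed by NCBI gene, Rnor_6.0), and the submitters' processing notes also name STAR 2.7.0f. Reads on several places or genes were left out, which can lower genes with near copies. Symbols matched 29322 of 38445 genes by NCBI gene identifier, and 9123 stayed without one.

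The analysis ran in R 4.3.3 and edgeR 4.0.16. After filterByExpr (minimum 10 counts, 15 in total) and TMM scaling, ethanol was set against control by the quasi-likelihood F-test, and p-values were adjusted by Benjamini-Hochberg across all 18141 genes that passed. A gene was called at an adjusted p below 0.2, the study's threshold. The study's own RNA-seq analysis, which was not repeated here, did call genes at that threshold. It reported Kcnj13 and Mapk13 as decreased after ethanol, and its qPCR gave changes similar to its RNA-seq. SE is the size of the log2 fold change divided by the square root of F. The SDs of log2 CPM and the search for the nearest genes used log2 CPM with a prior count of 2. The comparison with summed lists and its figure used log2 CPM without a prior count. Library totals of 62576504 to 70755739 set a floor of 3 counts at 0.0424 to 0.0479 CPM. Alternatives were edgeR's likelihood ratio test, DESeq2 1.42.0, other scaling, no filter, a replicate block and leaving out each library. P-values set the group difference against the spread between libraries of 2 pooled rats each, which edgeR estimates partly from all genes. The fit was tested on simulated data.

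The members and lists were chosen with earlier results of these data known. Named genes are the members, the 3 genes with the largest change and the 2 with the highest control level per kb in each list or family, the defining choroid plexus markers, and the 10 genes nearest to the members' profile. Of these, the text gives those that bear on the members, and genes named for their 0 counts or their calls by other tests were added after their values were seen. A named gene of the ion transport list is not reported here.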

Additional observations from a re-analysis of the deposited data

How the results depend on the processing

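RLE scaling, library size alone, no low-count filter and the replicate block changed no call among all genes or members. The likelihood ratio test of edgeR called 77 genes and 1 member, and DESeq2 74 genes and 1 member. Leaving out 1 library in turn gave 0 to 83 genes and 0 to 8 members with edgeR's quasi-likelihood test, and the highest values came without ethanol replicate 3. The median log2 fold change of the members then ranged from -2.89 to -1.27, that of the other choroid plexus markers from -1.42 to -0.775, of the ion transport list from -0.09 to 0.01 and of the solute list from -0.104 to -0.00981. Slc12a2 ranged from -0.159 to 0.141, with its sign turned without control replicate 1 (0.141) and ethanol replicate 1 (0.05). Slc13a4 ranged from -0.708 to 0.043, with its sign turned without control replicate 3. The cause was not tested.

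The replicate block, in which same-numbered libraries share a term, called 0 genes and 0 members, with unadjusted p below 0.05 for 1015 genes and 8 members, against 753 genes and 4 members without it. Same-numbered libraries hold different rats, so the numbers were not taken as pairing. The deviations of the pairs numbered 1, 2 and 3 correlated by 0.0264, 0.388 and 0.211 over 14241 genes. Those of unlike-numbered libraries correlated by -0.427 to 0.305. Deviations from a group mean are tied to each other within the group, so these values did not decide the matter. Depth limits Slco1a5 and Slc16a8, which had 6 to 12 counts in ethanol replicates 1 and 2.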
